A study of Mus musculus with 69 samples.

Results

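The 35 genes described here are cell cycle and replication genes, taken as a list of named members out of 21887 protein-coding genes, and all 35 matched an annotated mouse gene. For each member, the bases that lay in peaks within 50 kb of the gene were summed in 18 peak lists from mouse blood-forming cells. The members were 9 genes of origin licensing and the replicative helicase, 3 of the replication fork and nucleotide supply, 6 regulators of the G1/S step, 7 of G2 and mitotic entry, 8 of the spindle, chromosome segregation and mitotic exit, and the proliferation markers Mki67 and Top2a. They had a median annotated length of 13504 bases against 17169 for all genes, and a median of 3 other genes lay in their windows, with a range from 0 to 8. The windows of Cdc6 and Top2a overlapped, since the genes are 69004 bases apart on chromosome 11, so these members shared some peaks.

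Dividing cells express these genes in waves. E2F transcription factors switch on licensing, helicase and nucleotide genes as a cell passes from G1 into S phase. Genes for G2 and mitosis often carry CHR elements and CCAAT boxes, where the DREAM complex represses them in resting cells and MYBL2 and FOXM1 activate them later. Haematopoietic stem cells (HSCs) are mostly quiescent in adult marrow, while haematopoietic progenitor cells (HPCs), their more committed descendants, divide often. H3K27ac is a histone mark of active promoters and enhancers, and H3K4me1 lies over enhancers and the flanks of active promoters.

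The study profiled both marks by ChIPmentation, a form of ChIP-seq in which Tn5 transposase adds the adapters, in sorted cells of mice with a floxed Kmt2c gene, which encodes the H3K4 methyltransferase MLL3. Vav-Cre, a recombinase driven in blood-forming cells, was present in the heterozygous (Kmt2c f/+; Vav-Cre) and knockout (Kmt2c f/f; Vav-Cre) groups, while the labels call the controls wild type. Of 69 samples, 63 fell into 18 groups, each with 1 pooled peak list, and 6 were input chromatin with no list analysed here. H3K4me1 at 8 weeks of age was profiled in untreated HSCs and HPCs of all 3 genotypes, with 3 libraries per list. Both marks were mapped in 16-week HSCs, wild type and knockout, that had received either PBS or 5-fluorouracil (5-FU), a drug toxic to dividing cells, given 3 times at 3-week intervals at 150 mg/kg, with 3 to 6 libraries per list. H3K27ac was also mapped in wild-type and knockout HPCs at 8 to 10 weeks of age, following treatment over 3 days with PBS or with IL-1, an inflammatory cytokine, at 0.5 µg daily, with 4 libraries per list.

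Every list pools the libraries of its group, so no value below has a replicate error, and no difference between lists was tested. The lists held 37002 to 134509 peaks over 33.4 to 116.0 Mb, and the depth of the libraries is unknown. The wild-type 5-FU H3K4me1 list pooled 6 libraries from 2 label series and covered 116.0 Mb, against 44.2 to 54.0 Mb in the other 3 H3K4me1 lists at 16 weeks. Among markers of the sorted cells, the 12 HSC genes summed to 238371 to 315319 covered bases in the 4 H3K27ac lists of HSCs and to 124284 to 166167 in the 4 of HPCs. The 12 granulocyte and monocyte progenitor genes summed to 65034 to 98365 bases in HSCs and to 101208 to 135002 in HPCs. For 10 mature lymphocyte markers the sums were 33008 to 40601 and 43700 to 56635 bases. Cd8a and Ncr1 were at 0 in all 8 lists and the rest of them above 0. For 8 erythroid and megakaryocyte markers the sums were 28802 to 46547 and 43286 to 59209. For 8 stroma and endothelium markers they were 20682 to 49651 and 34787 to 63214, with Cxcl12 and Lepr at 0 in all 8 lists. Tek, an HSC marker, was at 0 in the 4 HPC lists. Ctsg and Ly6c2, of granulocytes and monocytes, were at 0 in all HSC lists and both wild-type HPC lists but not in the knockout HPC lists. A larger share of cells with a mark and more of it per cell cannot be told apart in these lists.

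Promoter sequences are shown for 5 members because the H3K27ac difference between cell types described below lies at promoters, and because these members carry the contrasting sequence elements of the early and late waves. They come from RefSeq on the build GRCm38.p6, run 5′ to 3′ in gene direction from 250 bases before the annotated start to 24 bases from it, and are in lower case. Capitals mark the words found on either strand. The E2F words searched were TTCCCGC, besides it TTGGCGC, also TTCGCGC and finally TTGCCGC, the CHR word was TTTGAA, and the CCAAT box was searched by those letters. Overlapping E2F words merge into 1 run of capitals. The stretches are chr1:128359682-128359955 (minus strand), chr8:75109259-75109532 (plus), chr10:69352889-69353162 (minus), chr7:135716356-135716629 (minus) and chr9:70421531-70421804 (minus).
Mcm6 promoter: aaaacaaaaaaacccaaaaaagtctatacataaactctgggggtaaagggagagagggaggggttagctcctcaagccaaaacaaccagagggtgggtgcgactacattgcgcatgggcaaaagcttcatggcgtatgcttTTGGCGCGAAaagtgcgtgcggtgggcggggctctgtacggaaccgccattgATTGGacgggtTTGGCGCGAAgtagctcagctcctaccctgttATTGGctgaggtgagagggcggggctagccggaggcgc
Mcm5 promoter: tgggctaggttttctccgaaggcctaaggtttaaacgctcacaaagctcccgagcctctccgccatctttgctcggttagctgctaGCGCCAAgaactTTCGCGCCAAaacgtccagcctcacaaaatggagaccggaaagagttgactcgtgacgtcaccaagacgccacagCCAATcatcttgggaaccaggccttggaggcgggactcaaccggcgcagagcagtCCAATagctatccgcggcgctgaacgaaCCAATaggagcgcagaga
Cdk1 promoter: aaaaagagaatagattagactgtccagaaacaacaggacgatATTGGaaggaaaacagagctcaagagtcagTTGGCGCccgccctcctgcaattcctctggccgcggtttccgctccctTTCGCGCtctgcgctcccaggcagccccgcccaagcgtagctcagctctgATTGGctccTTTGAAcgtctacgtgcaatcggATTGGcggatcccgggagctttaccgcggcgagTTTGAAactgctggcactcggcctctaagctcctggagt
Mki67 promoter: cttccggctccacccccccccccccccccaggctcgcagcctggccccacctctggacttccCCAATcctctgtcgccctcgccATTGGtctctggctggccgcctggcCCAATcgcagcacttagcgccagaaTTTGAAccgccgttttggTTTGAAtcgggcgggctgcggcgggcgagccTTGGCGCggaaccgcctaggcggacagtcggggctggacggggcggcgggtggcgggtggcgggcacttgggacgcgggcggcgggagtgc
Ccnb2 promoter: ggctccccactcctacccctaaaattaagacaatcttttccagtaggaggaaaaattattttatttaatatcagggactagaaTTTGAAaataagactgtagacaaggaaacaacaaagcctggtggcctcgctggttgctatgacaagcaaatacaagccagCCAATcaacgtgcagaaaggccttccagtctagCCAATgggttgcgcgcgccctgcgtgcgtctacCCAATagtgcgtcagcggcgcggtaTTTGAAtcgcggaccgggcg

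Mcm6 and Mcm5, subunits of the replicative helicase, held E2F words and CCAAT boxes but no CHR word. Mcm6 had 5 E2F words, 4 of them in 2 overlapping pairs and 1 beyond the printed end, and Mcm5 had 3. Cdk1, the kinase that starts mitosis, held 2 E2F words, 2 CHR words and 3 CCAAT boxes. Mki67, a coat protein of mitotic chromosomes, held 1, 2 and 3 of them. Ccnb2, a mitotic cyclin, held no E2F word, 2 CHR words and 3 CCAAT boxes.

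E2F and CHR words divided the members in the same way, while CCAAT boxes were frequent on both sides. Promoters of 29 members were matched, with 300 bases each, and 17492 promoters of all genes served as background. Aurkb, Ccna2, Ccne2, Foxm1, Gins2 and Mcm4 are not among the 29. An E2F word was present in 14 members (48.3%) and in 12.2% of all promoters, a CHR word in 12 (41.4%) and 16.5%, and a CCAAT box in 24 (82.8%) and 39.0%. Of 15 members that act in replication, nucleotide supply or G1/S, 11 held an E2F word, 1 (Mcm2) a CHR word and 11 (73.3%) a CCAAT box. Of 14 members that act in G2, mitosis or chromosome structure, 3 held an E2F word (Cdk1, Ccnb1 and Mki67), 11 a CHR word and 13 a CCAAT box. Motif pairs of different kinds overlapped only in Mcm7 and Ccnb1. E2f1, Ccne1 and Birc5 held none of these words, which says only that the letters are not in these windows. The E2f1 window, chr2:154569377-154569676 on the minus strand, lies wholly inside the annotated gene, which extends to 154569892. It therefore says nothing of the sequence before the outer end of E2f1. The windows of Cdc6 and Aurka also lie wholly inside their genes. The same starts were used for promoter peaks and profiles. Member promoters held a median of 24 CG dinucleotides against 13 in all promoters, with a similar GC content (57.7% against 56.3%).

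H3K27ac at the promoters of these genes covered more bases in HPCs than in HSCs. In 31 of 35 members all 4 HPC lists exceeded all 4 HSC lists, and in no member did all 4 lie below. The same held for 38.7% of the 12008 genes with a promoter peak in any of the 8 lists, and 7.53% lay the other way. Among the 500 genes nearest to each member in mean promoter coverage the share was 40.4%, so the members' share was also above that of genes of like coverage. These 2 cell types differ at once in age, in treatment schedule and in the experiment they came from, so the part of cell type in this difference cannot be told apart from those. Promoter bases are here the bases of all merged peaks that touch the stretch from 1 kb before to 1 kb after the start. For Aurkb, Ccna2, Ccne2, Foxm1, Gins2 and Mcm4, whose strand was not available, both annotated ends counted as starts. Their promoter bases can therefore include peaks at the far end of the gene. Some of the 31 members separated by a few bases only. The highest HSC lists of Ccna2, Ccnb2, Mcm4 and Rrm1 held 1858, 1088, 2067 and 1339 bases. Their lowest HPC lists held 1860, 1094, 2075 and 1347.

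The plot of promoter bases by member shows how wide the separation was. Birc5, the survivin gene, whose protein belongs to the chromosomal passenger complex, covered 390, 349, 570 and 391 bases in HSCs after PBS in wild type, PBS in knockout, 5-FU in wild type and 5-FU in knockout. In HPCs it covered 1989, 2102, 2001 and 2025 bases after PBS in wild type, PBS in knockout, IL-1 in wild type and IL-1 in knockout. All 4 HPC lists were thus far above all 4 HSC lists, and the means of the lists differed 4.77-fold.

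Mki67 covered 506, 472, 1001 and 904 bases in the HSC lists, in the same order, and 1940, 2933, 2093 and 3309 in the HPC lists. E2f1, an activator of the G1/S genes, covered 376, 890, 238 and 972 bases in HSCs and 1810, 2616, 2222 and 2423 in HPCs. Cdk1 covered 705, 214, 868 and 1218 bases in HSCs and 1844, 2367, 2325 and 1880 in HPCs. In each of these members the lowest HPC list lay above the highest HSC list, and the ratios of the means were 3.56, 3.66 and 2.8. Within HSCs, Cdk1 was lowest in the knockout PBS list and highest in the knockout 5-FU list.

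**Figure D1:**
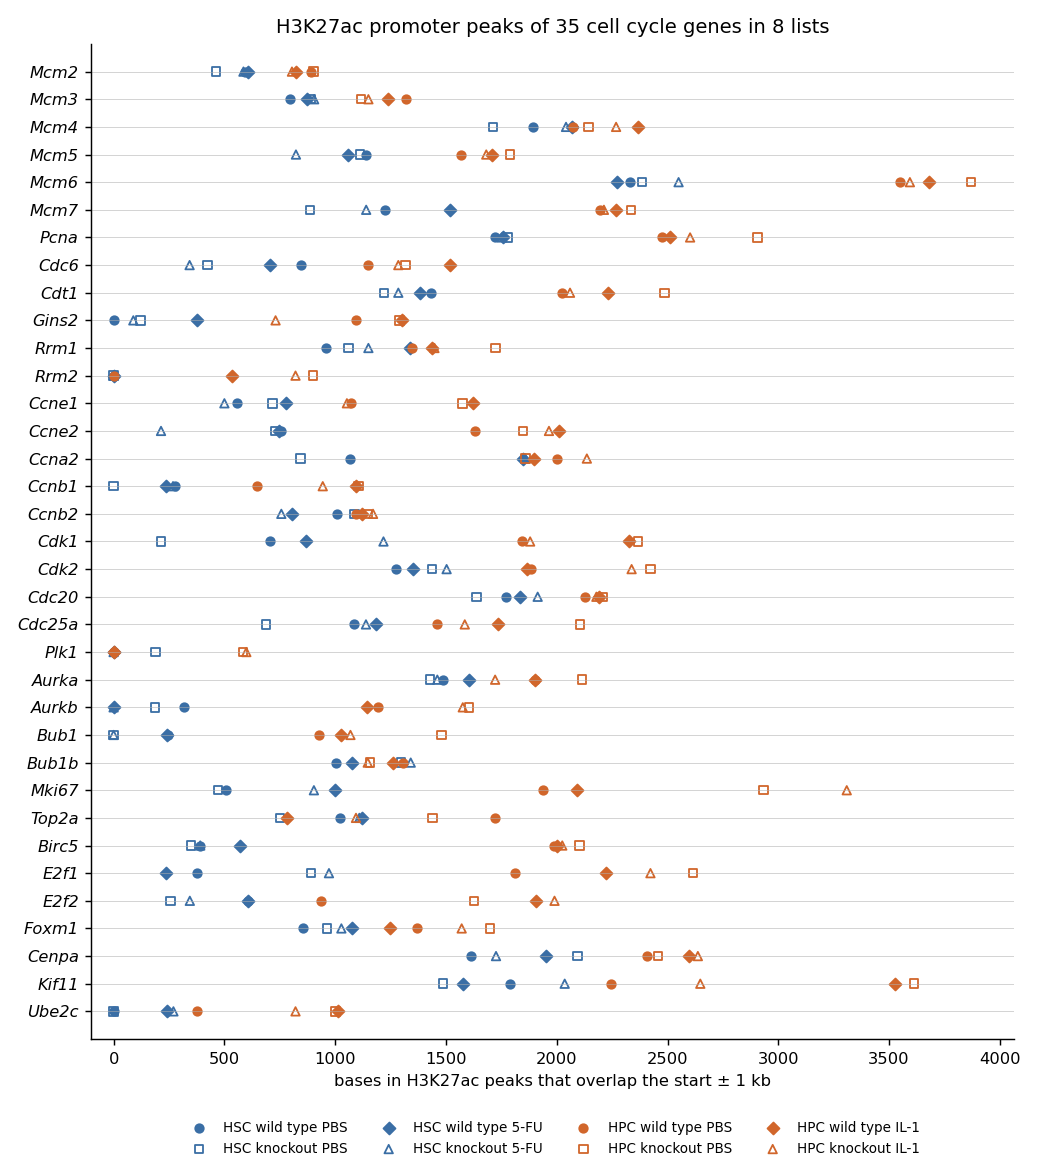
Bases in H3K27ac peaks that overlap the start ± 1 kb (x axis) for each of 35 members (rows) in 4 HSC lists (blue) and 4 HPC lists (orange); filled symbols are wild type, open symbols knockout, and each symbol is 1 pooled list. In 31 of 35 rows every orange symbol lies to the right of every blue one.

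The helicase and licensing genes held the same order. All 9 of them separated completely. Over the 8 that had a promoter peak in every list the median ratio was 1.59, from 1.15 (Mcm4) to 2.28 (Cdc6), and the remaining one, Gins2, had a ratio of 7.51. Mcm6 covered 2329, 2385, 2273 and 2550 bases in HSCs and 3550, 3871, 3680 and 3594 in HPCs. Mcm5 covered 1138, 1113, 1058 and 823 bases in HSCs and 1566, 1790, 1710 and 1682 in HPCs. Mcm6 had the broadest promoter regions of the helicase genes in both cell types.

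Mcm4 covered 1893, 1713, 2067 and 2042 bases in HSCs and 2075, 2144, 2365 and 2268 in HPCs, and Mcm2 covered 594, 463, 605 and 586 against 893, 903, 822 and 805. Cdc6, which loads the helicase at origins, covered 845, 424, 704 and 343 bases against 1147, 1318, 1520 and 1285. Mcm4 separated only narrowly, at 2067 against 2075 bases, and Cdc6 by more. Gins2, a subunit of the active helicase, had 0, 122, 377 and 89 promoter bases in HSCs and 1092, 1291, 1300 and 731 in HPCs.

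All 6 G1/S regulators had a promoter peak in every list and all 6 separated, with a median ratio of 2.57. Ccne1, the cyclin that activates CDK2, covered 555, 717, 777 and 500 bases in HSCs and 1071, 1574, 1621 and 1053 in HPCs. E2f2, another activator E2F, covered 605, 257, 605 and 344 bases against 937, 1626, 1908 and 1990. Ccne2, Cdk2 and Cdc25a, which removes inhibitory phosphates from cyclin-dependent kinases, had ratios of 3.05, 1.53 and 1.68. Of the fork and nucleotide genes, Pcna, the sliding clamp of DNA polymerases, and Rrm1 separated, with ratios of 1.5 and 1.32.

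Among genes of G2 and mitosis the separation was nearly as frequent, and the ratios ranged from 1.03 (Bub1b) to 10.92 (Aurkb). In G2 and mitotic entry 6 of 7 members separated, with a median ratio of 1.4 over the 5 with a promoter peak in every list and 1.5 over all 7. In the spindle, segregation and exit group 7 of 8 did, with a median of 1.37 over the 5 with a peak in every list and 3.26 over all 8. The 3 members without a peak in every list, Aurkb, Bub1 and Ube2c, had the largest ratios of that group (10.92, 9.2 and 6.28). Ccnb2 covered 1010, 1088, 805 and 757 bases in HSCs and 1094, 1147, 1119 and 1171 in HPCs, so that its highest HSC list nearly reached its lowest HPC list. Ccna2, the S and G2 cyclin, covered 1069, 843, 1850 and 1858 bases against 1999, 1860, 1899 and 2136, with the 5-FU lists of HSCs close to the HPC lists. Aurkb, the passenger complex kinase, and Bub1, a checkpoint kinase, had a peak in only some HSC lists (0 to 319 and 0 to 247 bases) and in all HPC lists (1144 to 1604 and 925 to 1479).

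The 4 members that did not separate were Rrm2, Plk1, Bub1b and Top2a. Rrm2, the small subunit of ribonucleotide reductase, had no promoter peak in any HSC list and in HPCs covered 0, 900, 533 and 821 bases. Plk1, a mitotic kinase, had a peak only in knockout lists, with 190 bases in the HSC PBS list and 583 and 599 in HPCs after PBS and IL-1. Bub1b, a spindle checkpoint kinase, had nearly equal means (ratio 1.03). Top2a, the topoisomerase that untangles chromosomes, covered 1024, 752, 1119 and 1109 bases in HSCs and 1722, 1440, 781 and 1094 in HPCs, with both IL-1 lists within the HSC range.

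Over the 28 members with a promoter peak in all 8 lists, the ratio of mean HPC to mean HSC promoter bases had a median of 1.54 and ranged from 1.03 to 4.77, and 17 (60.7%) reached 1.5-fold. For the 9088 genes with a promoter peak in all 8 lists the median was 1.2 and 25.9% reached 1.5-fold. Of the other 66 genes fixed as the rest of the pathway, 63 had a promoter peak in any list. In 39 of those all HPC lists exceeded all HSC lists, against 38.7% of all genes with a promoter peak. Uhrf1, which maintains DNA methylation after replication, had a mean of 83 bases in HSCs and 2088 in HPCs, Mybl2 had 0 and 643, and Rb1, the retinoblastoma gene, 2408 and 2473. These 3 were chosen after their values were seen.

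The lists of each genotype are part of the lists counted above. The 31 members that separated over all of them therefore separate within each genotype by construction, which is no repeat of the result. In wild type, both HPC lists exceeded both HSC lists in 32 of 35 members against 49.5% of genes, and in knockout in 33 of 35 against 57.2%. Compared list by list after PBS, the promoter log2 ratio of HPCs to HSCs, taken relative to the median gene after adding 1000 bases to both, had a median of 0.24 over 33 members in wild type and 0.37 over 35 in knockout. In wild type 31 members lay above the median gene and in knockout 30. At least 1.5-fold higher were 6 members in wild type (background 9.7%) and 13 in knockout (12.4%), and none was 1.5-fold lower (7.71% and 7.13%). Birc5 led in wild type (0.98) and Cdk1 in knockout (1.21).

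A promoter peak itself was nearly always present in both cell types. In the HSC lists 31 or 32 of 35 members (88.6% to 91.4%) had an H3K27ac promoter peak and in the HPC lists 33 to 35 (94.3% to 100%). The shares were 47.6% to 49.8% for all genes and 65.7% to 68.2% for genes of like total coverage. The median width of the covered promoter in members with a peak was 890 to 1109 bases in HSCs and 1632 to 1799 in HPCs, while all genes with a peak had 1352 to 1457 and 1655 to 1834. Members were thus narrower than other marked promoters in HSCs and of about the same width in HPCs.

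The difference was also seen at the start base. For the 29 members with a stranded start, the start base lay in an H3K27ac peak in 41.4% to 55.2% of members in the HSC lists and in 79.3% to 93.1% in the HPC lists. For all 17492 genes the shares were 33.5% to 36.5% and 42.0% to 44.4%. At 1000 bases after the start 10.3% to 24.1% of members were covered in HSCs and 24.1% to 48.3% in HPCs, and at 1000 bases before it 17.2% to 34.5% and 31.0% to 44.8%. The ranges of the cell types were apart at the start base, met 1000 bases downstream and overlapped 1000 bases upstream. At 2000 bases before the start no member was covered in any of the 8 lists, and at 2000 bases after it 3.45% to 6.9% were covered in HSCs and 6.9% to 10.3% in HPCs.

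H3K4me1 left the start free and lay downstream of it. At 8 weeks the start base was covered in at most 3.45% of members in each of the 6 lists. At 1500 bases after the start, 48.3% to 69.0% of members were covered in the HSC lists and 79.3% to 96.6% in the HPC lists, against 26.4% to 34.1% and 29.3% to 30.4% of all genes. At 1000 bases before it the shares were 24.1% to 44.8% and 37.9% to 44.8%. Both cell types had the same age and no treatment in these lists, and 1500 bases downstream the ranges of members did not overlap while those of all genes did. At 1000 bases downstream they overlapped (48.3% to 69.0% and 58.6% to 69.0%).

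The H3K4me1 promoter regions differed in the same sense at fewer members. In 8 of 33 members with an H3K4me1 promoter peak at 8 weeks all 3 HPC lists exceeded all 3 HSC lists, against 9.96% of genes, and in 3 they lay below, against 6.54%. Cdc6 had 669, 759 and 972 promoter bases in wild-type, heterozygous and knockout HSCs and 1946, 1605 and 1862 in HPCs. E2f1 had 1409, 2162 and 1797 against 2219, 2892 and 2210, and Birc5 769, 772 and 1067 against 1881, 1968 and 2164. All 3 were also among the members with separated H3K27ac promoters.

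The 3 members with narrower H3K4me1 promoter regions in HPCs were Mcm6, Mcm7 and Ccne1. Mcm6 covered 1971, 2966 and 2598 bases in HSCs and 1062, 1323 and 899 in HPCs, while its H3K27ac promoter bases were higher in HPCs. For Mcm7, another helicase subunit, the values were 1669, 1617 and 1827 against 1456, 1600 and 1517, and for Ccne1 854, 755 and 721 against 588, 509 and 514.

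**Figure D2:**
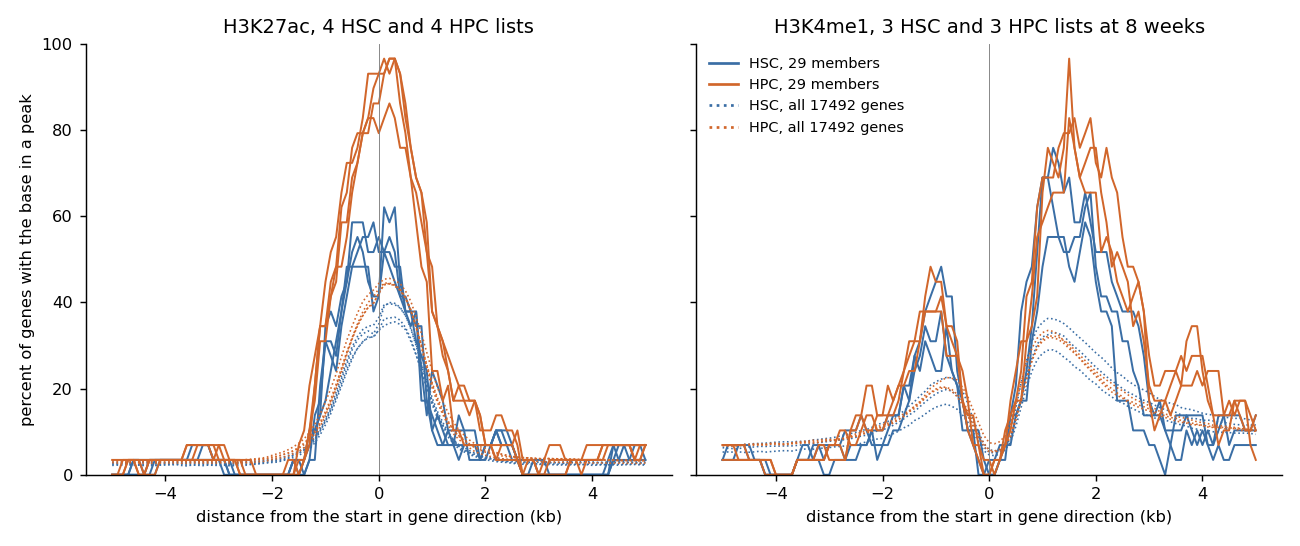
Percent of genes whose base at a given distance from the start (x axis, kb in gene direction) lies in a peak, for H3K27ac (left) and H3K4me1 at 8 weeks (right); each line is 1 list, solid for 29 members and dotted for all 17492 genes, blue for HSC and orange for HPC. Solid orange lines reach 79.3% to 93.1% at the start in H3K27ac, and H3K4me1 is near 0 there and rises on both sides, more so downstream.

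Around the whole gene the cell types differed less. H3K27ac bases within 50 kb were higher in all 4 HPC lists than in all 4 HSC lists in 19 members and lower in 2, Rrm1 and Ccna2, against 31.4% and 13.7% of all genes. For distal peaks, meaning those that touch no start window of the gene itself, 11 members were higher and 4 lower, against 27.8% and 15.1%, which is near the background. Compared after PBS, the total ratio of wild-type HPCs to HSCs had a median of 0.11 over 35 members, with 6 at least 1.5-fold higher (background 10.2%) and 1 lower (12.8%). In knockout the median was 0.12, with 7 higher (12.2%) and 3 lower (11.4%).

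Gins2 stood highest in the wild-type comparison. It had 3740, 2985, 3321 and 2475 distal H3K27ac bases in HSCs and 10120, 8674, 10485 and 7189 in HPCs, and its relative log2 ratio was 1.23 in wild type and 1.08 in knockout. The gain included stretches found in all 4 HPC lists and no HSC list inside the neighbouring gene Gse1, such as chr8:120537439-120538266 and chr8:120539619-120540492, 43000 and 40774 bases from Gins2. Mki67 had stretches of the same kind in Ptpre, such as chr7:135654251-135654790, and 1 at its own start, chr7:135716033-135716527. A window of 50 kb holds peaks of neighbours, and which gene a distal peak acts on was not tested.

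Top2a and E2f2 were also higher. Top2a had 4233, 3167, 4113 and 1749 distal bases in HSCs and 9776, 8461, 11253 and 9096 in HPCs (relative total ratio 0.86 in wild type), in the window it shares with Cdc6. The distal stretches of at least 200 bases found in all 4 HPC lists and no HSC list lay in the neighbour Rara. The widest, chr11:98947910-98948902, was 44045 bases from Top2a, and all of them were also counted for Cdc6. E2f2 had 471, 1129, 826 and 341 against 2162, 2316, 2150 and 2298 (0.85 in wild type). In knockout Mki67 led with 1.17, from 4914 total bases in HSCs to 15769 in HPCs, and Cdk1 stood at 1.00, from 335 to 2367. Birc5 had a stretch at its own start, chr11:117849194-117850017, present in all 4 HPC lists and no HSC list.

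Rrm1 and Ccna2 were lower in HPCs away from the promoter. Rrm1, the large subunit of ribonucleotide reductase, had 4083, 3308, 4744 and 4953 distal bases in HSCs and 2565, 1776, 1864 and 263 in HPCs (relative total ratio -0.59 in knockout). Ccna2 had 4309, 4787, 4809 and 4225 against 2447, 1998, 1832 and 1551, with a total ratio of -0.78 in knockout. Both had more promoter bases in HPCs at the same time, with narrow gaps between the lists, as given above. With windows of 10 kb these ratios turned to 0.26 for Rrm1 and 0.07 for Ccna2. Cenpa, the centromeric histone, stood at -0.67 in knockout with 1750 distal bases in HSCs and 382 in HPCs, and Rrm2 at -0.71 in wild type with 3111 and 1764. Stretches found in all 4 HSC lists and no HPC list lay at chr7:102516190-102517454, 46419 bases from Rrm1, and at chr3:36532982-36533536, 31329 bases from Ccna2. In total, 61 stretches of at least 200 bases at 21 members were specific to HPC lists in this way, 58 of them distinct since some windows overlap. They held 6.22% of the members' covered bases, against 4.45% in such stretches for all genes. Specific to HSC lists were 12 stretches at 9 members (1.22% and 1.57%).

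H3K4me1 around the members gave a like picture at matched age. In the untreated lists at 8 weeks, the 3 HPC lists exceeded the 3 HSC lists in 11 members and lay below in 2, Mcm3 and Cdc20, against 22% and 15.1% of all genes. Relative to the median gene, the ratio of HPCs to HSCs had a median over 35 members of 0.05 (wild type), 0.14 (heterozygous) and 0.12 (knockout). At least 1.5-fold higher were 4, 3 and 4 members (backgrounds 9.84%, 9.16% and 8.92%), and lower were 2, 2 and 1 (9.15%, 10.8% and 12.6%). These counts are near the background. With windows of 10 kb 12, 9 and 10 members were higher (backgrounds 11.6%, 10.2% and 10.5%) and 2, 0 and 0 lower, so that the count of higher members depended on the window.

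Aurka and Birc5 were at least 1.5-fold higher in HPCs in all 3 genotypes, 2 of 35 members where 4.65% of genes were. Around Aurka, a kinase of spindle assembly, H3K4me1 covered 7787, 9537 and 9990 bases in wild-type, heterozygous and knockout HSCs and 18018, 15835 and 17233 in HPCs. The relative log2 ratios were 0.86, 0.71 and 0.87. Many of the stretches specific to HPC lists lay in the neighbour Cass4, such as chr2:172394261-172394688, and within 10 kb of Aurka the ratios were 0.18, 0.30 and 0.29.

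Around Birc5 the values were 14123, 16317 and 15771 bases in HSCs and 27806, 26577 and 25843 in HPCs (0.68, 0.70 and 0.82). One stretch specific to HPC lists, chr11:117850239-117850857, lay within Birc5, and the others lay outside it, up to 47255 bases away. Around Cdk1, peaks covered 3941, 5305 and 4929 bases in HSCs and 8764, 7992 and 7604 in HPCs (0.73, 0.54 and 0.68), with a stretch specific to HPC lists inside the gene at chr10:69348921-69349405. In each of these 3 members the HPC lists lay above all HSC lists in every genotype.

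**Figure D3:**
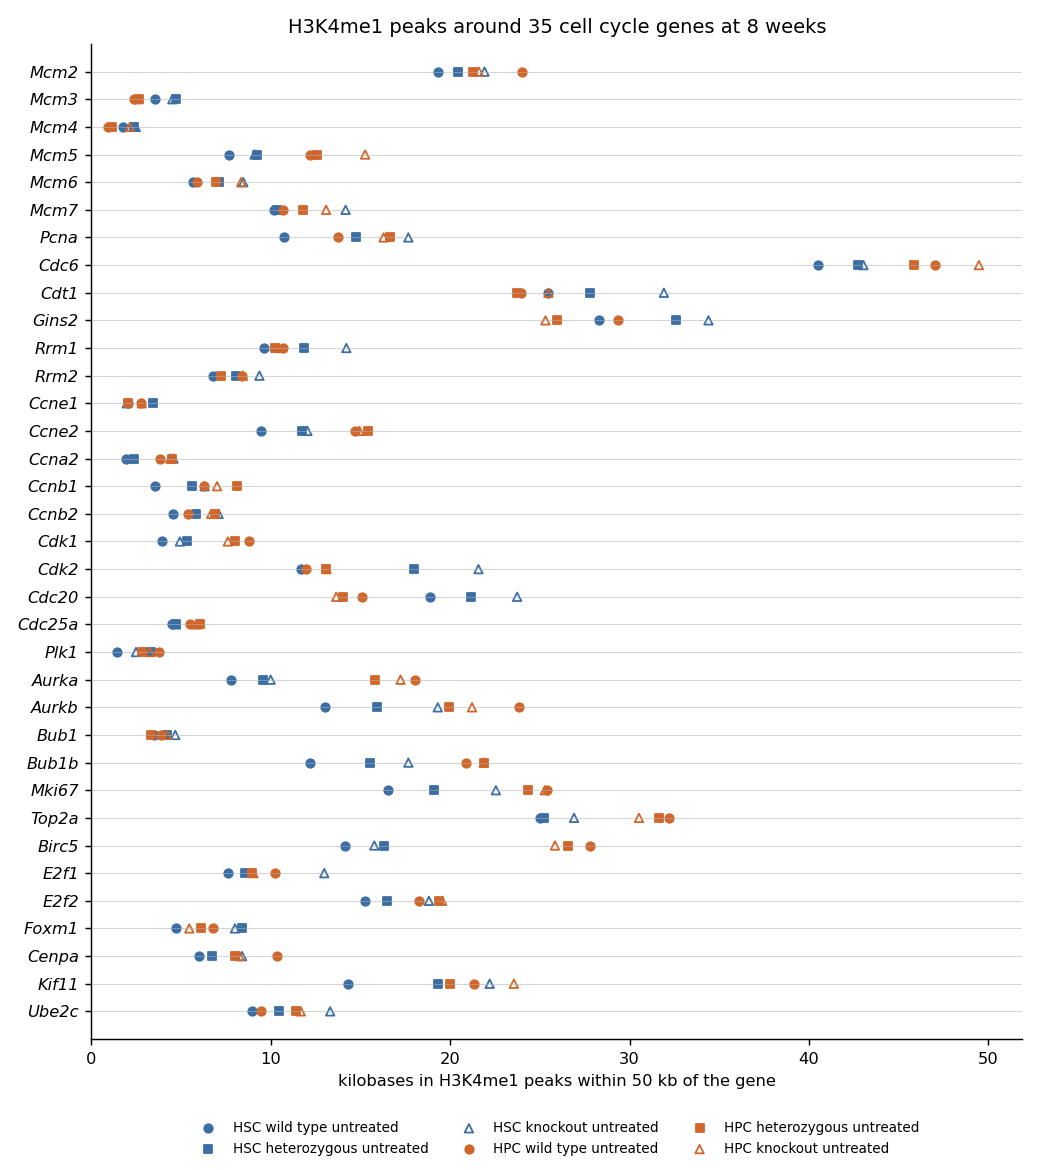
Kilobases in H3K4me1 peaks within 50 kb of each of 35 members (rows) in 3 HSC lists (blue) and 3 HPC lists (orange) of untreated mice at 8 weeks; circles are wild type, squares heterozygous, triangles knockout. Orange lies to the right of blue in 11 rows, among them Aurka, Birc5 and Cdk1, and to the left in Mcm3 and Cdc20.

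Other named members passed the fold in 1 or 2 genotypes. Mcm5 covered 7672, 9221 and 9092 bases in HSCs and 12181, 12602 and 15258 in HPCs, with a relative ratio of 0.83 in knockout, and its HPC stretches lay inside the gene, such as chr8:75118476-75119352. Plk1 covered 1430, 3319 and 2484 against 3792, 2811 and 3249 bases (0.73 in wild type), and Ccna2 1939, 2350 and 4573 against 3825, 4468 and 4391 (0.74 in heterozygous). The lists of both overlapped between cell types.

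Lower in HPCs were Mcm3, with 3527, 4732 and 4512 bases in HSCs and 2364, 2659 and 2609 in HPCs (-0.68, -0.62 and -0.47), and Mcm4, with 1760, 2382 and 2469 against 950, 1168 and 2139 (-0.75 and -0.61 in wild type and heterozygous). Around Cdc20, the activator of the anaphase-promoting complex, peaks covered 18872, 21156 and 23733 bases in HSCs and 15096, 14042 and 13649 in HPCs (-0.56, -0.53 and -0.61). With windows of 10 kb the knockout ratio of Cdc20 turned to 0.6.

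Levels differed widely between members. Averaged over the 8 H3K27ac lists, covered bases ranged from 1236 around Ccnb2, 1375 around Mcm3 and 1565 around Cdk1 to 13899 around Cdc6, 14082 around Cdt1, which licenses origins with Cdc6, and 19538 around Aurkb. Over the 10 H3K4me1 lists the fewest lay around Mcm4 (lowest 0, median 1464, highest 2469), Ccne1 (335, 2012 and 3413) and Plk1 (431, 2353 and 3792). The most lay around Cdc6 (22096, 42879 and 49480), Gins2 (16290, 27131 and 34399) and Cdt1 (19022, 24700 and 31915). Ccna2 had no H3K4me1 promoter peak in any of the 10 lists, and Mki67, Cdc20, E2f2, Mcm5, E2f1, Rrm2, Cenpa and Mcm6 had one in all 10.

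The marks overlapped a little less on the members than over all genes. In wild-type HPCs 55.2% of the members' H3K27ac bases after PBS lay in H3K4me1 peaks of untreated HPCs, against 60.0% over all genes. In wild-type HSCs at 16 weeks the share was 30.7% against 37.0% after PBS, and 49.6% against 57.7% after 5-FU. The H3K4me1 lists used covered 102.5, 54.0 and 116.0 Mb in this order, so the shares cannot be compared between these groups. Distal peaks held 75.3% to 79.3% of the members' H3K27ac bases in HPC lists and 81.7% to 83.7% in HSC lists, against 81.2% to 83.1% and 82.6% to 84.6% over all genes.

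Knockout and wild-type lists differed by no common displacement of the members. In the 8 comparisons of knockout with wild type, which share no list with each other, the members' median relative log2 ratio lay between -0.03 and 0.07. No member lay above the median gene in all 8 and 1 of 32 tested in all lay below, Aurka, against 2.06% and 3.85% of genes. The ratios of Aurka ranged from -0.86 (HSC H3K4me1 after 5-FU) to -0.05 (HSC H3K27ac after PBS), with a median of -0.21. In HSCs at 8 weeks no member passed 1.5-fold in knockout (backgrounds 4.86% and 1.01%), and in HPCs Mcm4 did (0.69; 2.04% higher, 2.48% lower).

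The heterozygous lists, which are compared with the same wild-type lists as the knockout, had member medians within 0.01 of the median gene in both cell types. Plk1 in HSCs was the only member past the fold (0.59; background 2.92% higher, 1.02% lower), and its ratio in knockout was 0.13. In HPCs none passed it (1.5% and 1.8%).

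H3K27ac in knockout HSCs differed at single members. After PBS the median was 0.06, and 1 member was at least 1.5-fold lower (background 4.7%), Cdk1 at -0.73, which has too few bases for the check with equal numbers of peaks. None was higher (0.768%). After 5-FU, Kif11, a motor protein of the bipolar spindle, was higher at 0.68 (0.655%), and Aurka at -0.61 and Birc5 at -0.61 were lower (5.08%).

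Around Kif11 H3K27ac covered 5885 bases in the wild-type PBS list, 6736 in knockout PBS, 5103 in wild-type 5-FU and 7786 in knockout 5-FU. Both knockout lists were above both wild-type lists. Of 7 stretches of at least 200 bases found in both knockout HSC lists and no wild-type one, 4 lay within 50 kb of Kif11, among them chr19:37359354-37359961, 16421 bases from the gene. The 7 stretches made up 0.79% of the members' covered bases in HSCs (0.279% in such stretches over all genes), and 19 stretches of at least 200 bases at 14 members were found only in both wild-type lists (2.28%, 2.74% over all genes). Around Aurka the values in the same order were 6774, 5770, 8316 and 4478 bases, and around Birc5 8335, 5654, 10248 and 5621. In both members the knockout lists lay below the wild-type lists, but they also covered less of the genome (33.4 and 36.5 against 42.2 and 45.4 Mb). The log2 ratio of the median gene was -0.155 after PBS and -0.158 after 5-FU. The share of all genes whose lists separate by genotype, in either direction, was not counted. With windows of 10 kb the ratio of Aurka was 0.03.

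In HPCs, knockout after PBS had Rrm2 higher (0.60; background 1.34%) and no member lower (3.39%), from 1764 bases in the wild-type list to 3347. After IL-1 no member passed the fold in either direction (0.764% and 3.34%). In knockout HPCs the promoters of Plk1 and Rrm2 had peaks after PBS that the wild-type list lacked, as given above. Ctsg and Ly6c2 likewise had bases only in the knockout lists of HPCs, where the 12 granulocyte and monocyte genes summed to 132664 bases after PBS against 135002 in wild type, and their part in this was not tested.

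H3K4me1 in HSCs at 16 weeks differed most between genotypes, in lists of unequal extent. After PBS, 3 of 32 members were at least 1.5-fold higher in knockout (background 3.84%) and 2 lower (5.48%). Foxm1, a transcription factor of the late cell cycle genes, went from 1246 bases in wild type to 2749 in knockout (0.91), Cdk2 from 3872 to 6494 (0.80) and Plk1 from 528 to 1115 (0.64). Cdc25a went from 1850 to 345 (-0.91) and Mcm3 from 2793 to 953 (-0.78). After 5-FU none of 34 members was higher (3.81%) and 3 were lower (10.4%). With lists cut to equal covered bases 8 of 30 were higher (20.9%) and 1 lower (6.83%), and with windows of 10 kb none of 30 passed in either direction (4.97% and 12%).

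Those 3 were Foxm1 with 7749 bases in wild type and 837 in knockout (-1.05), Cdc25a with 6985 and 835 (-0.92) and Aurka with 7049 and 924 (-0.86). The wild-type 5-FU list is the one of 116.0 Mb from 6 libraries, and its part in these values was not tested. With windows of 10 kb the ratio of Cdc25a turned to 0.32. Foxm1 was thus higher in knockout after PBS and lower after 5-FU, in comparisons that share no list.

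H3K27ac around these genes differed little between the 5-FU and PBS lists of HSCs. The median relative ratio was 0.01 in wild type, with no member past 1.5-fold in either direction (backgrounds 1.19% and 0.863%), and -0.04 in knockout. There Cdk1 was higher at 0.68 (1.33%), with 335 bases after PBS and 1218 after 5-FU, and Ccne1 lower at -0.61 (1.03%), with 1937 and 986. In wild type the same members went from 1462 to 1087 and from 1271 to 1145 bases, so the direction for Cdk1 differed between the genotypes, while Ccne1 had fewer bases after 5-FU in both (relative ratio -0.14 in wild type). At the promoter, 20 of 33 members in wild type and 23 of 33 in knockout lay above the median gene, with medians of 0.03 and 0.04.

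For H3K4me1 the 5-FU list of wild type covered more bases than the PBS list around every member but Ccne1, as it did over the genome. After setting the median gene to 0, 5 of 34 members were at least 1.5-fold higher (background 7.46%) and none lower (2.35%). The named ones were Foxm1 (0.94), from 1246 to 7749 bases, Ccna2 (0.84), from 231 to 3455, and Cdk2 (0.79), from 3872 to 16102. In knockout none of 31 was higher (3.26%) and 3 were lower (5.11%). These were Aurka (-1.18), from 3350 to 924 bases, Foxm1 (-1.03), from 2749 to 837, and Rrm2 (-0.67), from 5355 to 3009.

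Across the 4 comparisons of 5-FU with PBS, Mcm6 and Rrm1 lay above the median gene in all 4 and Cdt1 and Gins2 below in all 4, of 31 members tested, against 8.98% and 9.14% of genes. Mcm6 ranged from 0.01 to 0.63 and Rrm1 from 0.03 to 0.36. Cdt1 ranged from -0.34 to -0.02 and Gins2 from -0.25 to -0.07. These counts are near the background.

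In HPCs more members lay above than below the median gene after IL-1 in both genotypes, by small amounts. The median relative ratio was 0.08 in wild type, with 26 of 35 members above the median gene, and 0.07 in knockout, with 22 above. In 18 members both comparisons lay above and in 5 both lay below, against 31.2% and 31% of genes. At least 1.5-fold higher were Rrm2 in wild type (0.82; background 1.35%), with 1764 bases after PBS and 3804 after IL-1, and Cenpa in knockout (0.71; 1.09%), with 2840 and 4578. No member was 1.5-fold lower (1.91% and 2.06%). Rrm2 in knockout covered 3347 and 3794 bases, and Cenpa in wild type 3359 and 4016. The 1764 bases of wild-type HPCs after PBS were the lowest for Rrm2 among the 8 H3K27ac lists, which had a median of 3570.5. The ratios of Rrm2 given above for genotype (0.60) and for cell type (-0.71) rest on that same list.

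**Figure D4:**
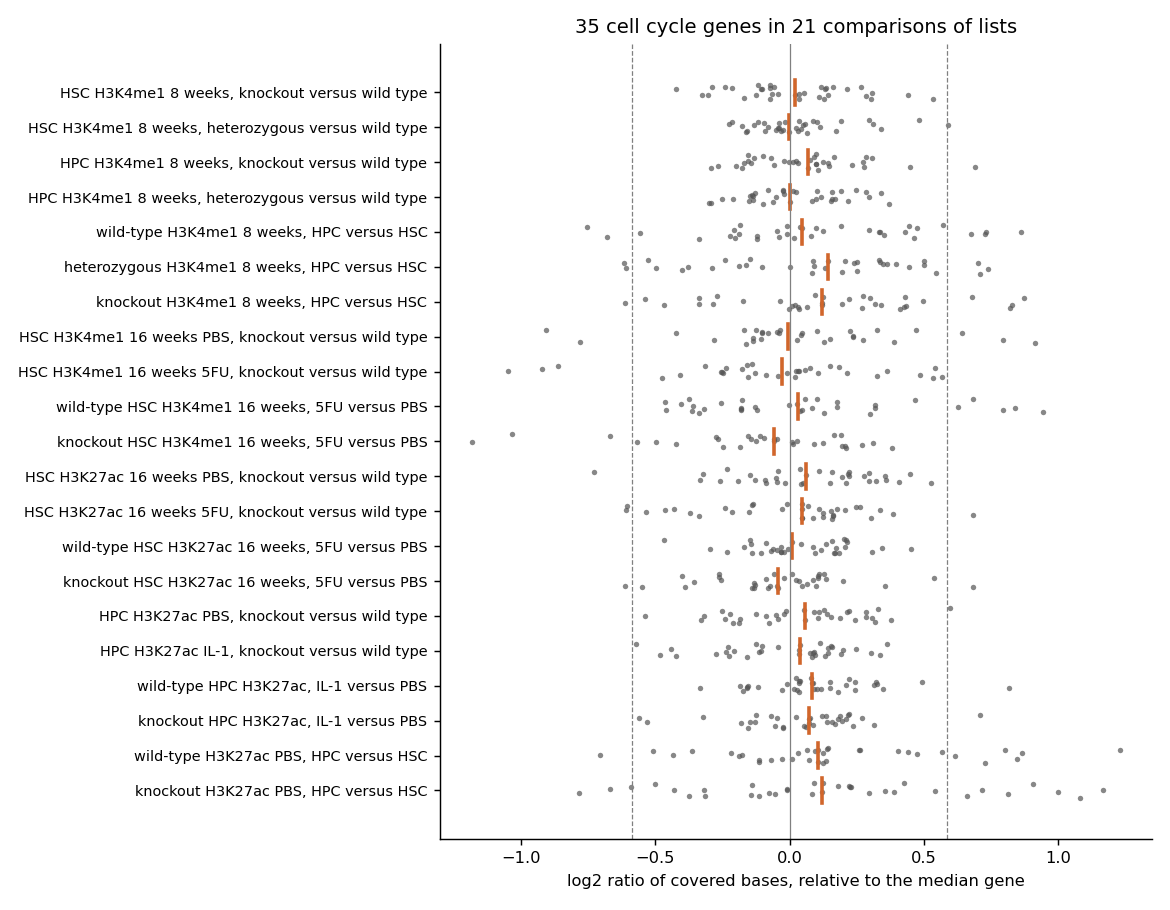
Relative log2 ratio of covered bases within 50 kb (x axis; 0 is the median gene, dashed lines mark 1.5-fold) for each member (grey points) in 21 comparisons of pooled lists (rows); orange bars are medians. Medians lie within 0.15 of 0 in all 21 rows, and points spread most in the comparisons of HPC with HSC and in H3K4me1 at 16 weeks.

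The other 66 genes of the pathway, such as those of the origin recognition complex, condensin and the kinetochore, had medians near 0 for total coverage. Their median relative ratio of HPCs to HSCs was -0.02 for H3K27ac after PBS in wild type and 0.09 in knockout, and 0.04, -0.06 and 0.02 for H3K4me1 in wild-type, heterozygous and knockout lists at 8 weeks. In H3K27ac after PBS, 9 of 62 were at least 1.5-fold higher (background 10.2%) and 7 lower (12.8%) in wild type. In knockout 8 of 61 were higher (12.2%) and 4 lower (11.4%). At the promoter, H3K27ac separated in 39 of 63 of them and in 31 of 35 members, against 38.7% of all genes with a promoter peak. The difference between these shares was not tested.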

How the data were processed

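ChIPmentation libraries were aligned with Novoalign and peaks called with MACS2 on mm10 (GRCm38), per the submitters' processing notes, with versions, filters and pooling not given in the sources used here. Each of the 18 deposited lists gives, per peak, the authors' fold enrichment (a ratio) and -log10 p. The first was used to describe peaks and the second to rank or filter them within a list. Depth is unknown.

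Peaks of a list were merged, and bases within 50 kb of each protein-coding gene (mm10 coordinates from the RefSeq gene table) were summed. A promoter region is a merged peak that touches a start ± 1 kb, and all others are distal. Stranded starts came from the RefSeq promoter table for 29 members, and either annotated end was used for the other 6. Lists were compared in pairs by the log2 ratio of bases with 1000 added to both, minus the median over genes with at least 1000 bases in either list (1 base for promoter or distal bases). Past the fold means 1.5-fold from that median gene. Genes of like coverage are the 500 nearest in mean bases. Without replicate values, lists are described with no p-value.

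In each comparison up to 3 members per direction are named, being those with the largest ratio past 1.5-fold that keep their direction with equal numbers of peaks. Set levels are given for Mcm2, Mcm4, Mcm5, Cdc6, Ccne1, E2f1, E2f2, Ccna2, Cdk1, Plk1, Mki67 and Top2a, for the 3 members with the most and the fewest bases per mark, and for members with no promoter peak; other members named were picked after their values were seen. The members and lists were chosen with earlier results of these data known. The comparison of H3K27ac between HPCs and HSCs, the checks of its promoter counts and the distance of 1500 bases in the profile were added after seeing the data. Alternatives were 10 kb windows, 5000 added bases, no minimum, a -log10 p of at least 3, equal peaks or equal bases per list, other start windows and other distal peaks. Python 3.11.15, NumPy 2.4.6, pandas 2.3.3 and matplotlib 3.10.9 were used, and the scripts were checked on simulated data.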

Additional observations from a re-analysis of the deposited data

How the results depend on the processing

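No paired analysis was possible because each group has 1 pooled list, so replicate numbers carry no value of their own, and leaving a library out of it is not possible. Of the main results, 177 values under alternatives stayed close to the reported ones and 29 moved; of the named members' ratios 240 kept direction and fold, 81 no longer passed 1.5-fold and 5 reversed. Close means inside an interval around the members' median or promoter share, or within 1.5-fold for the count of separated promoters. That interval reflects the spread among members and is no error of the lists. The cause of the changes under alternatives was not tested.

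With windows of 10 kb, medians of HPC against HSC became 0.40 (wild type) and 0.34 (knockout) for H3K4me1, and 0.30 and 0.32 for H3K27ac. Those of knockout against wild type in 5-FU H3K4me1, of 5-FU against PBS in knockout H3K4me1 and of IL-1 in wild type became 0.10, 0.14 and 0.16. Members at least 1.5-fold higher in HPCs were then 12, 9 and 10 instead of 4, 3 and 4 for H3K4me1 (wild type, heterozygous, knockout), and 11 instead of 7 for knockout H3K27ac. Reversed at 10 kb were Cdc20 (0.60) in knockout H3K4me1, HPC against HSC, Cdc25a (0.32) in 5-FU H3K4me1 and Aurka (0.026) in 5-FU H3K27ac, both knockout against wild type, and Ccna2 (0.074) and Rrm1 (0.26) in knockout H3K27ac, HPC against HSC.

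A start window of 2.5 kb gave an H3K4me1 promoter peak to 100% of members in the untreated HPC lists of all 3 genotypes and in untreated knockout HSCs, to 94.3% in wild-type 5-FU, 71.4% in both treated knockout lists and 68.6% in wild-type PBS. Counting only distal peaks at no start of another gene, median distal H3K4me1 bases were 4818, 5996 and 6436 in wild-type, heterozygous and knockout HPCs, 6161 in heterozygous HSCs, and 2741 and 2525 in wild-type and knockout HSCs after PBS. For H3K27ac they were 1764, 1894, 1385 and 1182 in HPCs (PBS wild type, PBS knockout, IL-1 wild type, IL-1 knockout) and 1302, 1605, 1517 and 1543 in HSCs (PBS wild type, PBS knockout, 5-FU wild type, 5-FU knockout).

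The count of members whose H3K27ac promoter bases were higher in all HPC lists was 31 with a 2.5 kb start window (36.8% of all genes) or a -log10 p of at least 3 (39.3%), 30 with equal numbers of peaks (42.4%), 28 with equal covered bases (36.5%), and 26 of 28 among those with a peak in all 8 lists (42.8%); none lay below in any of these. Pooled lists limit every value: neither depth nor the spread between mice is known.

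Adding 5000 bases in place of 1000 left no more than 3 members past 1.5-fold in any comparison. Lists of equal covered bases gave 4 instead of 7 higher members in knockout H3K27ac, HPC against HSC, 8 instead of 0 in 5-FU H3K4me1, knockout against wild type, and 3 instead of 0 lower in wild-type H3K4me1, 5-FU against PBS.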
